A study of Rattus norvegicus with 6 samples.

Results

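Alveolar type 2 (AT2) cells were picked out from single-cell RNA counts of 6 rat lungs by a marker rule. A cell was counted as an AT2 cell when it held at least 1 unique molecular identifier (UMI, 1 counted RNA molecule) of at least 3 of the 6 genes Slc34a2, Lamp3, Lgi3, Irx1, Pla2g1b and Defb4, and 0 UMIs of Ptprc, the leukocyte gene CD45, and of Cdh5, the endothelial cadherin. The rule found 795 of 25547 cells. The lungs came from adult Sprague-Dawley rats. A single dose of bleomycin (BLM), 5 mg/kg by the tracheal route, had been given to 3 rats, and saline to the other 3, called control here. All were taken on day 28, perfused, and digested with enzymes, 1 library being made per rat. The 3 rats of a group are separate animals, so their spread is a spread between animals.

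AT2 cells are the cuboidal cells of the alveolar wall that make surfactant, a film of phospholipid and of the proteins of Sftpa1, Sftpb, Sftpc and Sftpd. They store it in lamellar bodies, clear fluid from the airspace, take part in host defence, and divide and turn into flat type 1 cells when the alveolus is injured. BLM damages DNA and injures this epithelium, and in experimental fibrosis AT2 cells are known to pass through a transitional state marked by Krt8.

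The counts were 223, 190 and 268 AT2 cells in control rats 1, 2 and 3 and 11, 54 and 49 in BLM rats 1, 2 and 3. The AT2 cells of a rat held between 48296 UMIs in BLM rat 1 and 1033863 in control rat 3. Their median depth was 3505 UMIs in the control group and 3061 in the BLM group, against 1391 and 1348 in all other cells. BLM rat 1 rested on 11 cells only, so its sums carried the largest counting error. Of the AT2 cells, 28 had a cell number that also occurred in another library. No doublet caller was run, and each sum over AT2 cells was also made without the cells above the 99th percentile of UMIs.

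The genes of the rule were abundant in these cells by construction. All 6 were found in 64.0% of the control and in 31.6% of the BLM members, and only 3 in 4.85% and 22.8%. Cells with 2 of the genes, just outside the rule, numbered 35 in control and 65 in BLM lungs. Sftpc gave 18540 UMIs per 1000000 UMIs of the same cells (counts per 1000000, CPM) in the 35 and 3837 CPM in the 65, against 42820 and 26200 CPM in the members with 3 genes. Slc34a2, the phosphate carrier of AT2 cells, was seen in 97.7% of control and 94.7% of BLM members. It was seen in 1.99% and 0.549% of cells with Ptprc, whose median depth was 1609 and 1336 UMIs, a share read here as background.

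The label was checked against Sftpc, which the rule did not use. The median member drew 13.7%, 13.5% and 12.7% of its UMIs from Sftpc in the control rats and 3.81%, 11.3% and 11.7% in the BLM rats. At least 1 UMI of Sftpc was found in 99.9% of control and 92.1% of BLM members. Nkx2-1, the transcription factor of lung epithelium, was seen in 70.8% and 56.1%, and Epcam, an adhesion protein of epithelial cells, in 81.4% and 77.2%, against 0.884% and 0.314%, and 1.15% and 0.963%, of cells with Ptprc.

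A minority of the members went against the label. In 5 of 681 control and 16 of 114 BLM members, Sftpc gave less than 1% of UMIs, 3 of the BLM cells being from rat 1, 8 from rat 2 and 5 from rat 3. Only 7 of the 795 members lay between 0.5% and 2%. The genes highest in those 21 cells against the other members included secretory and airway genes and genes of the transitional state. Scgb3a2, a secretoglobin of club cells, reached 5245 CPM in them and 34.7 CPM in the other members, Scgb1a1, the main club cell protein, 95760 and 11660 CPM, and Msln, mesothelin, 1751 and 6.03 CPM. Krt8 lay at 1270 and 174 CPM, Cldn4 at 853 and 44.5 CPM and Lgals3 at 1260 and 81.8 CPM. These 3 were seen in 20, 15 and 18 of the 21 cells. Scgb3a2 was seen in 10, and of other club cell genes Scgb3a1 in 1 and Bpifa1 and Reg3g in 0. Lgi3 was seen in 2 and Defb4 in 6 of the 21 cells, but Sftpd in all 21 and Nkx2-1 in 16. They met the rule and stay within what is called AT2 cells or all members here, although these values go against that name. The shares and the comparison of BLM with control are also given for the 774 members with at least 1% of UMIs from Sftpc, called Sftpc-high here, while the leading genes and the spread between cells are given for all members only. The limit of 1% was chosen after the values had been seen.

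**Figure D1:**
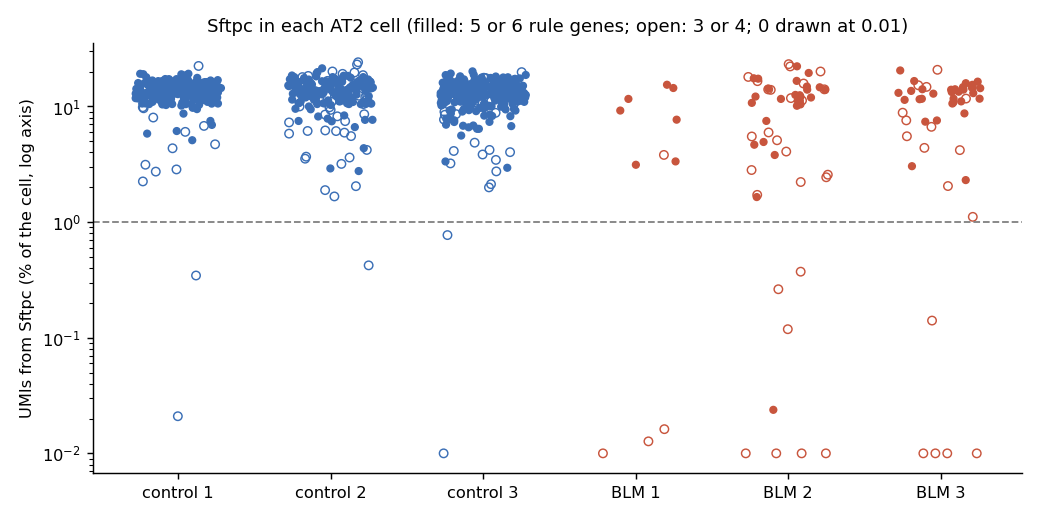
Share of UMIs from Sftpc in each of the 795 cells that met the rule, by rat, on a log axis, with 1 point per cell and a dashed line at 1%. The main cloud sits near 13% in the control rats, and 5 control and 16 BLM cells lie under the line, nearly all with 3 or 4 of the 6 rule genes (open points, with 0 drawn at 0.01).

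AT2 cells made up 6.61% ± 0.785 (SD, n = 3) of the cells of control lungs and 0.763% ± 0.484 (n = 3) of those of BLM lungs, 8.67-fold less. The share was 6.61%, 7.40% and 5.83% in the control rats and 0.301%, 0.722% and 1.27% in the BLM rats. The groups did not overlap. The exact 95% binomial interval of the highest BLM rat, which covers counting error only, was 0.938% to 1.67%. The two-sided exact permutation test over rats gave p = 0.1, the smallest that 3 against 3 rats can reach. Among cells without a UMI of Ptprc the share was 27.7% ± 4.24 against 1.76% ± 0.84. Among Sftpc-high members it was 6.57% ± 0.787 against 0.657% ± 0.46. With at least 2 of the 6 rule genes the share was 6.96% ± 0.895 in control and 1.18% ± 0.498 in BLM lungs, 5.88-fold less. With at least 4 it was 6.28% ± 0.697 and 0.604% ± 0.441, 10.4-fold less. A share depends on what the digest releases, on how many other cells are captured and on the level of the rule genes in a cell. Fewer AT2 cells cannot be told apart here from more cells of other kinds or from AT2 cells with less RNA of the rule genes.

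**Figure D2:**
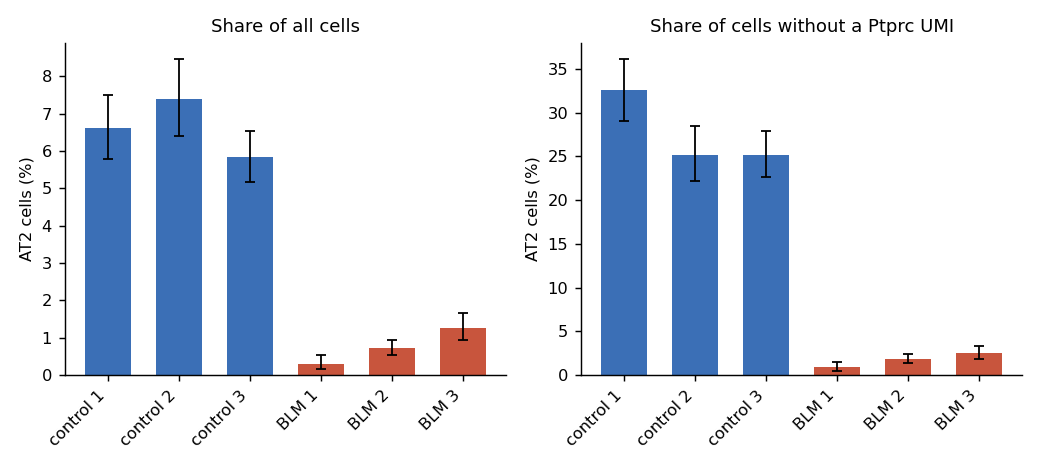
AT2 cells as a percent of all cells (left) and of cells without a Ptprc UMI (right) in each rat, with exact 95% binomial intervals that cover counting error only. The 3 BLM rats lie at 0.301% to 1.27% of all cells and the 3 control rats at 5.83% to 7.40%.

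What set the AT2 cells apart from all other cells of the same lung was described without a test, since the cells were chosen by such genes. The 20 genes with the highest log2 ratio in their least enriched rat, over the 5 rats with at least 20 AT2 cells, held all 6 genes of the rule. The surfactant genes Sftpc, Sftpa1, Sftpb and Sftpd had ratios of at least 5.61, 5.51, 5.37 and 5.07 in each of these rats. Among the other leading genes were Retnla, a secreted resistin-like protein (5.40), Ly6i, a surface protein of the Ly6 family (5.24), Cxcl17, a mucosal chemokine (4.90), the mucin Muc1 (4.83), the carboxypeptidase Cpm (4.80), the alveolar tight junction gene Cldn18 (4.46) and Pigr, the carrier of IgA (4.45). For Sftpc the ratio was higher in the BLM rats, 11.4, 7.95 and 7.36, than in the control rats, 6.72, 5.61 and 6.55. Sftpc lay at 10.8, 331 and 564 CPM in the other BLM cells and at 1243, 2775 and 1341 CPM in the other control cells.

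**Figure D3:**
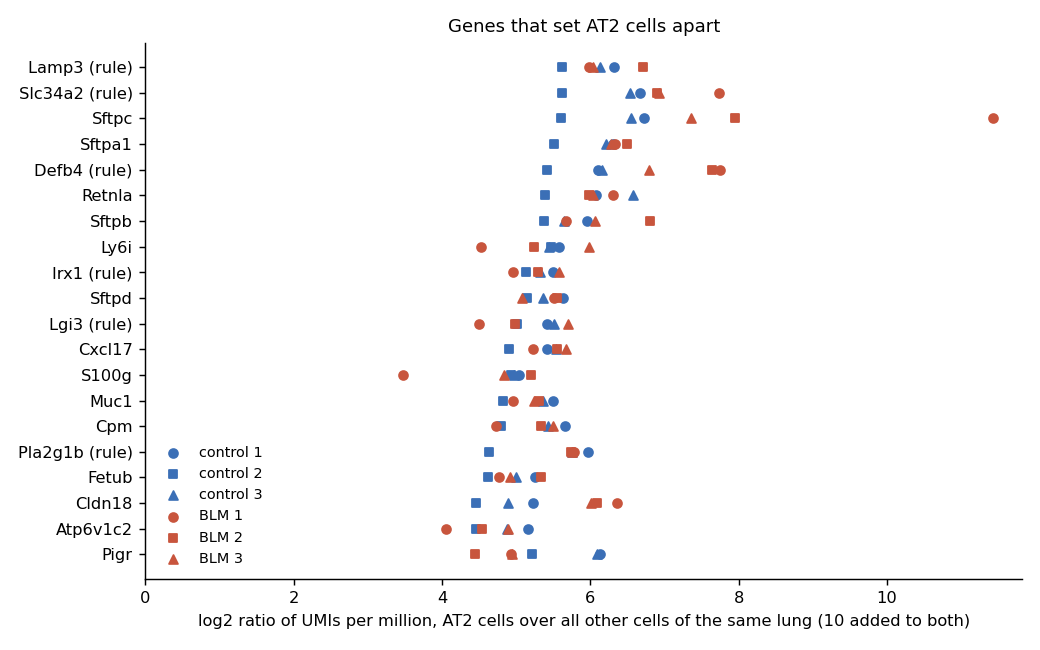
The 20 genes most enriched in AT2 cells, as the log2 ratio of CPM in AT2 cells to CPM in all other cells of the same lung, with 1 symbol per rat. Pigr, the last of them, has a lowest ratio of 4.45 over the 5 rats with at least 20 AT2 cells, and Sftpc reaches 11.4 in BLM rat 1, which held 11 AT2 cells.

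Upstream sequence is given for 2 of these genes, Sftpb, whose protein surfactant cannot form without, and Pla2g1b, a secreted phospholipase of the rule, to show a motif that lung epithelial promoters can hold. The 250 bases before the gene start (RefSeq, build GRCr8) were searched on both strands for CTCAAG, a core that NKX2-1 can bind, and matches stand in capitals (CTTGAG is the same core on the other strand).
Sftpb, chr4:105917338-105917587, plus strand: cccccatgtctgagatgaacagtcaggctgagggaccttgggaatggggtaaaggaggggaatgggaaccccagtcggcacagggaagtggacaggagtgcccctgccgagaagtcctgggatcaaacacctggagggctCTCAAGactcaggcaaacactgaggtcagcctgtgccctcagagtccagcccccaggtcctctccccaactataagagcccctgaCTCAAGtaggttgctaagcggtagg
Pla2g1b, chr12:46812654-46812903, minus strand: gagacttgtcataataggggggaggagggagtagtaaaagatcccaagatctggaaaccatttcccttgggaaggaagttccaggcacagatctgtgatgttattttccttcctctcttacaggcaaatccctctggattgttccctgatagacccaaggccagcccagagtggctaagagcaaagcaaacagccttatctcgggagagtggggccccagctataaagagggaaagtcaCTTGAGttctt
Of the 20 leading genes 14 had an entry, and 6 of them held the core, namely Irx1, Cxcl17, Sftpb, Atp6v1c2, Cpm and Pla2g1b, while 13.4% of all 33469 upstream stretches of the same length held it. Sftpc, Defb4, Sftpd, Lgi3, S100g and Fetub had no entry. A match describes these letters and is not a measured binding site.

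AT2 cells of a control lung also differed among themselves. After each control cell was thinned to 2000 UMIs, the ratio of variance to mean over cells had a median of 1.08 over 3923 genes, and Scgb1a1 had the highest, 70.7, 138 and 167 in the 3 rats. Retnla followed at 20.6, 15.2 and 24.7, being seen in 36.4%, 13.0% and 55.8% of thinned cells. The other genes with the most uneven counts were Sftpc (16.3, median of 3 rats), AY172581.24 (15.6), the lysozyme Lyz2 (14.9), the neutrophil chemokine Cxcl1 (11.2), Sftpa1 (9.11), the lipocalin Lcn2 (8.56), the annexin Anxa1 (7.08) and the chemokine Ccl20 (6.38). These are descriptions of single cells of 3 rats, and free RNA of the digest adds to abundant genes.

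Counts were then summed over the AT2 cells of each rat, and BLM was compared with control by edgeR's quasi-likelihood test on 4587 genes. After BLM 251 genes differed (5.47%). Of these, 136 genes were higher (2.96% of those tested) and 115 lower (2.51%) at an adjusted p below 0.05, and 796 had an unadjusted p below 0.05. DESeq2 on the same sums called 148 higher and 77 lower. In the Sftpc-high members 98 of 4455 genes differed (2.2%), 48 being higher (1.08%) and 50 lower (1.12%). Both fits called 40 genes higher, 29.4% of the higher calls over all members and 83.3% of those in the Sftpc-high ones, and 46 lower, 40.0% and 92.0%. Each rat was left out on its own, with all members and with the Sftpc-high ones. Over these 12 fits 6 genes stayed higher in each, Cd24, Chia, Glrx, LOC691143, Tspan1 and Tspan8, and 15 stayed lower, among them Acsm5, Calcrl, Cxcl1, Enpep, Fgg, Fmod, Hspb11, Kcne2, Kcnmb2, Lrp2, Mme, Mpzl2, Prss23 and Rapgef5. The number of calls moved with single rats, to 69 higher and 48 lower without control rat 1, to 86 and 67 without control rat 2, to 105 and 62 without control rat 3, and to 99 and 64 without BLM rat 2. Without regard to the test, the groups did not overlap in 13.2% of genes upward and 11.8% downward over all members, and in 9.58% and 12% in the Sftpc-high ones, and each gene said not to overlap is to be read against these shares. In bulk sums, fewer cells that express a gene and less RNA per cell cannot be told apart, so the share of cells with a UMI is given for several genes.

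Chia, the acidic chitinase of alveolar and airway epithelium, had the largest rise in the Sftpc-high cells among genes of at least 50 CPM on average. It lay at 30.0, 21.2 and 44.0 CPM in control and 1262, 743 and 3907 CPM in BLM rats. The groups stood apart by a log2 fold change of 5.92 (SE 0.52, adjusted p = 1.13e-05) there and of 7.0 (SE 0.53, adjusted p = 2.27e-06) over all members. A UMI of Chia was seen in 3 of 8, 6 of 46 and 10 of 44 Sftpc-high cells of BLM rats 1, 2 and 3, and 1 cell of each rat held 62.2%, 74.1% and 76.1% of these UMIs. Among cells with Ptprc it was seen in 0.261% and 0.874% in the control and BLM groups. In all other cells of the same lungs Chia rose too, from 10.1, 5.69 and 22.7 CPM in control to 342, 186 and 308 CPM in BLM rats. Its change in the Sftpc-high cells minus that in other cells was 0.98 by edgeR's interaction test (adjusted p = 0.0590). Over all members that difference was 2.35 (adjusted p = 1.79e-10), and limits of that test are given below.

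Glrx, a glutaredoxin that frees protein thiols from glutathione, lay at 2.40, 13.5 and 8.81 CPM in control and 136, 166 and 66.2 CPM in BLM rats (log2 fold change 3.86, SE 0.54, adjusted p = 7.91e-04). It was seen in 2.22% of control and 19.4% of BLM Sftpc-high cells, and in 42.5% and 41.3% of control and BLM cells with Ptprc, so leukocytes carried it as well. Cd24, a mucin-like surface protein of immature epithelium, lay at 40.8, 11.6 and 33.3 CPM in control and 205, 131 and 346 CPM in BLM rats (2.94, SE 0.40, adjusted p = 7.78e-04). Tgfb2, a ligand of the TGF-beta family, lay at 7.21, 1.93 and 21.5 CPM in control and 205, 87.5 and 95.6 CPM in BLM rats (3.12, SE 0.57, adjusted p = 0.00574), and its call was lost without control rat 1 (adjusted p = 0.0853). Tgfb2 was seen in 2.66% of control and 15.3% of BLM Sftpc-high cells, against 0.883% and 1.74% of cells with Ptprc. In each of these 3 genes all BLM rats lay above all control rats, as in 9.58% of all genes tested. The other genes of the 10 raised most, among those of at least 50 CPM on average whose groups did not overlap, were LOC691143 (3.94), Ifi27l2b (3.54), the glutathione transferase Gstt3 (2.90), Ifi27 (2.79), the surface protein Plet1 (2.73) and the epoxide hydrolase Ephx1 (2.49). Among these the call was lost for Gstt3 without control rat 1 (adjusted p = 0.0943), for Plet1 without control rat 1 and BLM rat 2 (adjusted p = 0.0663 to 0.115) and for Ephx1 without control rats 1, 2 and 3 and BLM rat 1 (adjusted p = 0.0809 to 0.117).

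The largest rises over all members included several genes that also led the 21 Sftpc-low cells. Msln lay at 2.38, 0 and 0.967 CPM in control and 1760, 333 and 405 CPM in BLM rats, on 3 and 202 UMIs, a ratio of 443 with a 95% counting interval of 149 to 2166. Among Sftpc-high members it had 3 and 13 UMIs, a ratio of 36.8 with a 95% counting interval of 10.1 to 201. Itln1, an intelectin that binds microbial sugars, had 1 and 59 UMIs, a ratio of 388 with a 95% counting interval of 67.0 to 15590, and 1 and 0 in the Sftpc-high members. All 59 UMIs came from 4 of the 21 Sftpc-low cells, and 189 UMIs of Msln from 13 of them. A counting interval takes each UMI as a separate draw and covers no spread between cells or rats. Lypd2, a protein of the Ly6 family (7.34), the chaperone Clu (6.0), the mucin Muc5b (5.48) and Agr2, which folds mucins (5.17), rose over all members and were too low to be tested in the Sftpc-high ones. Scgb3a2 had a log2 fold change of 5.09 (SE 0.66, adjusted p = 1.61e-04) over all members and of 2.86 (adjusted p = 0.288) in the Sftpc-high ones. Of the 10 genes with the largest rises over all members, Chia and Bpifa5, a secreted lipid-binding protein (5.34 and 5.19), were called in both fits, Bpifa5 on 5 and 25 UMIs in the Sftpc-high members.

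The genes that fell most, by the same conditions, were nearly the same over all members and in the Sftpc-high ones, 9 of 10 being shared. Enpep, aminopeptidase A, which cleaves angiotensin II, lay at 477, 498 and 419 CPM in control and 34.1, 139.9 and 95.6 CPM in BLM rats in the Sftpc-high cells (log2 fold change -2.15, SE 0.28, adjusted p = 6.88e-04). Mme, the peptidase neprilysin, named after its values were seen, lay at 458, 399.5 and 465 CPM in control and 34.1, 149 and 118 CPM in BLM rats (-1.90, SE 0.27, adjusted p = 9.01e-04). Kcnmb2, a subunit of the calcium-gated potassium channel, lay at 197, 185 and 219 CPM in control and 34.1, 35.0 and 36.8 CPM in BLM rats (-2.50, SE 0.34, adjusted p = 7.78e-04). Kcne2, another potassium channel subunit, lay at 256, 330 and 256 CPM in control and 68.2, 96.2 and 36.8 CPM in BLM rats (-2.12, SE 0.33, adjusted p = 0.00210). No BLM rat reached a control rat in these 4 genes, as in 12% of all genes tested. Adrenomedullin, Adm, a peptide that widens vessels, fell by 2.63 on the log2 scale on 5 UMIs in BLM rats, a call lost without BLM rat 2 (adjusted p = 0.115), and its receptor Calcrl fell by 2.59. Rapgef5, an exchange factor of Rap (-3.32, on 4 UMIs in BLM rats), the matrix protein Fmod, fibromodulin (-2.15), Hspb11, an intraflagellar transport protein (-2.34), and Acoxl, an acyl-CoA oxidase-like protein (-1.92), were lower too. The call of Acoxl was lost without control rat 1 (adjusted p = 0.0579). Acsm5, a medium-chain acyl-CoA synthetase, had 226 and 1 UMIs in control and BLM Sftpc-high cells, a ratio of 0.0375 with a 95% counting interval of 9.46e-04 to 0.211. That interval covers no spread between cells or rats. Esam, a junction protein, fell by 2.25 and 1.84, with groups that overlapped in the Sftpc-high cells, where the call was lost without control rats 1, 2 and 3 and BLM rats 2 and 3 (adjusted p = 0.0584 to 0.221). Calcrl and Esam are also endothelial genes. Calcrl is itself 1 of the 12 endothelial markers listed. The other 11 summed to 23.8 to 33.9 CPM in control and 103 to 107 CPM in BLM members, and to 24 to 27.4 CPM and 34.1 to 73.6 CPM in the Sftpc-high ones, with Cdh5, which the rule kept out, and Emcn at 0. Ramp2, a partner of Calcrl among them, rose by 2.86 over all members (adjusted p = 0.00172) and was too low to be tested in the Sftpc-high ones.

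**Figure D4:**
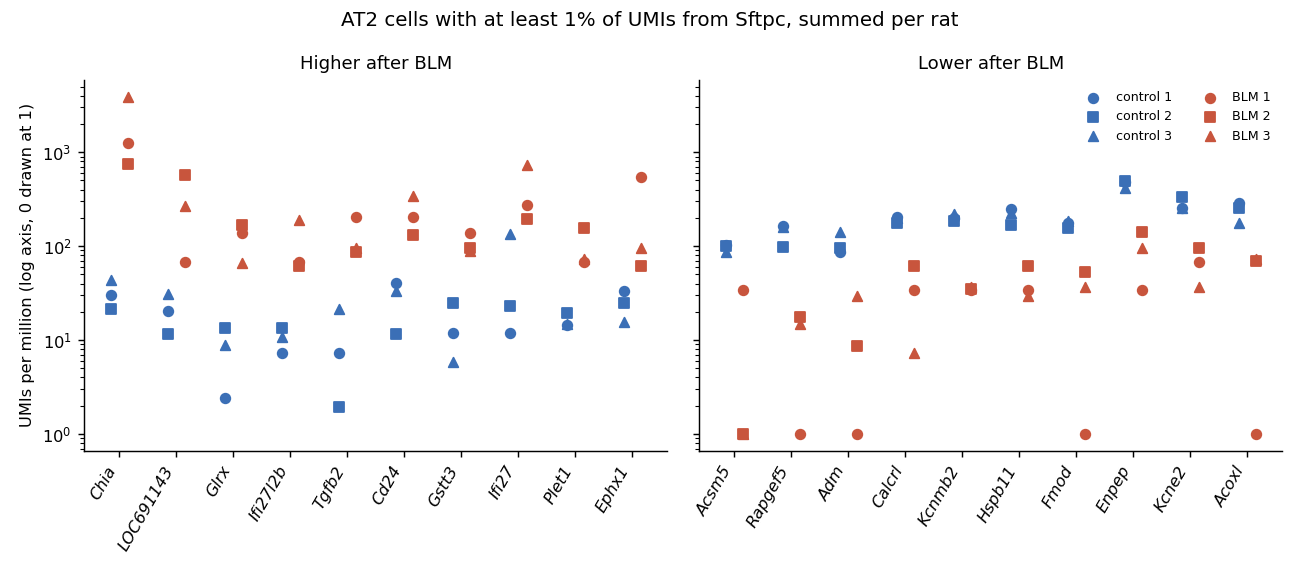
CPM per rat, on a log axis with 0 drawn at 1, of the 10 genes with the largest rise (left) and the 10 with the largest fall (right) in the Sftpc-high AT2 cells, with 1 symbol per rat, among called genes of at least 50 CPM on average whose groups did not overlap. The BLM rats (red) therefore lie on 1 side of the control rats (blue) by choice, and Chia reaches 3907 CPM in BLM rat 3.

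The surfactant genes themselves were not called by edgeR, and Sftpc was called by DESeq2. Sftpc lay at 132000, 135900 and 126500 CPM in control and 57500, 84210 and 93890 CPM in BLM rats over all members (log2 fold change -0.80, SE 0.40, adjusted p = 0.316). DESeq2 gave a fall of Sftpc by 0.86 on the log2 scale (adjusted p = 0.0231), and without the filter on low counts edgeR gave an adjusted p of 0.00439. In the Sftpc-high cells, which Sftpc itself helped to choose, it lay at 133300, 136700 and 128000 CPM against 94620, 110300 and 114300 CPM. In both the highest BLM rat stayed below the lowest control rat. Sftpb, the protein that spreads the film, lay at 12850, 15340 and 12530 CPM in control and 8469, 10040 and 11350 CPM in BLM rats over all members (-0.51, SE 0.27, adjusted p = 0.365) and at -0.32 in the Sftpc-high ones. The collectins Sftpa1 and Sftpd had log2 fold changes of -0.40 and 0.16, and of -0.39 and -0.23 in the Sftpc-high ones. The median of the 4 genes was -0.46, against -0.0088 over all genes tested. An adjusted p above the threshold in 3 against 3 rats does not show that these levels were equal.

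Of the genes that process surfactant and build the lamellar body, 16 were tested. Over all members 1 rose and 3 fell, where 2.96% and 2.51% of all genes did, and in the Sftpc-high ones 1 rose and 1 fell, where 1.08% and 1.12% did (median -0.22 and -0.10). Abca3, the lipid pump of the lamellar body, lay at 362, 439.6 and 343 CPM in control and 124, 159.7 and 224 CPM in BLM rats (log2 fold change -1.13, SE 0.24, adjusted p = 0.0111), and had -0.81 (adjusted p = 0.0925) in the Sftpc-high members. Lpcat1, which remodels surfactant phosphatidylcholine, fell by 1.03 on the log2 scale (adjusted p = 0.0233) and had -0.64 (adjusted p = 0.159) in the Sftpc-high members. Ctsc, the lysosomal cathepsin C, fell by 0.85 (adjusted p = 0.0357) and in the Sftpc-high members by 0.91 (adjusted p = 0.0390). Cd9, a tetraspanin, rose, lying at 73.7, 67.2 and 162 CPM in control and 663, 685 and 368 CPM in BLM rats (2.36, SE 0.32, adjusted p = 2.58e-04), and by 1.8 (adjusted p = 0.0131) in the Sftpc-high members. The calls over all members were lost for Abca3 without BLM rat 2 (adjusted p = 0.0597), for Lpcat1 without control rats 1 and 2 and BLM rats 1 and 2 (adjusted p = 0.0539 to 0.114) and for Ctsc without control rats 1, 2 and 3 and BLM rats 2 and 3 (adjusted p = 0.0716 to 0.144). Among Sftpc-high members they were lost for Ctsc without control rats 1, 2 and 3 and BLM rats 1 and 3 (adjusted p = 0.0629 to 0.149) and for Cd9 without control rats 1 and 2 and BLM rats 1 and 2 (adjusted p = 0.0524 to 0.130). The lysosomal genes Npc2 (0.10) and Ctsh (-0.06) and the protease Napsa, which cuts the surfactant proteins (-0.40), did not pass the test.

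The genes of lipid synthesis fell or did not pass the test. Of 18 genes of fatty acid and phospholipid synthesis 6 fell and 0 rose over all members (median -0.50), and of 17 in the Sftpc-high ones 2 fell and 0 rose (median -0.66). Of all genes tested 2.51% fell over all members (median -0.0088) and 1.12% in the Sftpc-high ones (median -0.026). Scd, stearoyl-CoA desaturase, lay at 1673, 1207 and 1440 CPM in control and 166, 546 and 574 CPM in BLM rats (log2 fold change -1.67, SE 0.29, adjusted p = 0.00244), and fell by 1.25 (SE 0.25, adjusted p = 0.0140) in the Sftpc-high members. Its relative Scd2 lay at 4432, 3517 and 3931 CPM in control and 456, 1504 and 2041 CPM in BLM rats (-1.55, SE 0.35, adjusted p = 0.0162), and fell by 1.24 (adjusted p = 0.0492) in the Sftpc-high members. Both were lower in every BLM rat than in any control rat, and BLM rat 1, with its 11 cells, was the lowest. The call of Scd2 was lost over all members without control rat 1 (adjusted p = 0.0813), and in the Sftpc-high ones without control rats 1, 2 and 3 and BLM rat 2 (adjusted p = 0.0793 to 0.157), while that of Scd was lost in the latter without control rat 1 (adjusted p = 0.0834). Fasn, fatty acid synthase (-1.22), Mid1ip1, which activates acetyl-CoA carboxylase (-1.16), and the acyl-CoA synthetases Acsl4 (-1.0) and Acsl5 (-0.99) fell over all members. They had, in the Sftpc-high members, -0.90, -0.80, -0.66 and -0.94, with adjusted p from 0.0718 to 0.234. Their calls were lost for Fasn without control rats 1 and 2 and BLM rats 1 and 2 (adjusted p = 0.0828 to 0.127), for Mid1ip1 without control rat 1 (adjusted p = 0.0688), for Acsl4 without control rats 1, 2 and 3 and BLM rats 1 and 2 (adjusted p = 0.0605 to 0.202) and for Acsl5 without control rat 1 and BLM rat 3 (adjusted p = 0.0646 to 0.0739).

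Of 15 cholesterol genes 4 fell and 0 rose over all members, where 2.51% of all genes fell. A negative fold change was found in 14 of the 15 (median -0.56, against -0.0088 over all genes). In the Sftpc-high members 0 of 15 passed the test (median -0.35, against -0.026 over all genes), and 4 had an unadjusted p below 0.05. Among them Sqle, squalene epoxidase (-1.24), and Insig1, a sterol sensor (-1.06), fell over all members, and had -1.12 (adjusted p = 0.161) and -0.81 (adjusted p = 0.126) in the Sftpc-high ones. Those calls were lost for Sqle without control rats 1 and 2 and BLM rats 1 and 2 (adjusted p = 0.0615 to 0.110) and for Insig1 without control rats 1 and 3 and BLM rats 1 and 2 (adjusted p = 0.0651 to 0.176). The 10 lowered genes of both lipid lists were searched in their 250 upstream bases (RefSeq, GRCr8) on both strands for TCACNCCAC, a core of the sterol regulatory element. Of the 6 with an entry, Scd2, Scd, Acsl5, Insig1, Mid1ip1 and Acsl4, 0 held these letters in that window, which 0.974% of all 33469 stretches held. Fasn and Sqle were among those with no entry.

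Among 15 transcription factors and receptors of AT2 cells 1 rose and 1 fell over all members (median -0.17), and 1 rose in the Sftpc-high ones (median -0.044). Over all genes 2.96% rose and 2.51% fell over all members and 1.08% rose in the Sftpc-high ones, and a count of 1 gives no result about the list. Sox9, a factor of the distal buds of the embryonic lung, lay at 5.95, 5.76 and 6.77 CPM in control and 104, 33.3 and 115 CPM in BLM rats (log2 fold change 3.58, SE 0.54, adjusted p = 6.06e-04), and rose by 3.54 (SE 0.59, adjusted p = 0.00308) in the Sftpc-high cells. It was seen in 1.63% of control and 15.3% of BLM Sftpc-high cells, against 0.199% and 0.258% of cells with Ptprc. The call in the Sftpc-high cells was lost without BLM rat 3 (adjusted p = 0.338) and not tested without control rats 1, 2 and 3. Etv5, a factor downstream of FGF signalling that maintains AT2 cells, lay at 534, 524 and 525 CPM in control and 82.8, 266 and 332 CPM in BLM rats (-1.09, SE 0.27, adjusted p = 0.0274), and had -0.75 (adjusted p = 0.198) in the Sftpc-high members. Its call was lost without control rats 1, 2 and 3 and BLM rat 2 (adjusted p = 0.0629 to 0.101). The epithelial factors Cebpa (-0.71), Elf3 (0.50) and Klf5 (0.37) and the FGF receptor Fgfr2 (-0.72) did not pass the test in either fit.

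Of 19 genes of the transitional, Krt8-high state 8 rose and 0 fell over all members (median 1.07), where 2.96% of all genes rose. In the Sftpc-high ones 3 of 18 rose (median 0.49, against -0.026 over all genes), where 1.08% of all genes rose. The 3 were Cdkn1a, Lgals3 and S100a6. Cdkn1a, the cell cycle inhibitor p21, lay at 251, 218 and 218 CPM in control and 409, 638 and 389.9 CPM in BLM rats in the Sftpc-high cells (log2 fold change 1.07, SE 0.22, adjusted p = 0.0157). Lgals3, galectin 3, lay at 39.6, 77.2 and 54.8 CPM in control and 239, 568 and 118 CPM in BLM rats (2.49, SE 0.42, adjusted p = 0.00399). S100a6, a calcium-binding protein, lay at 249.8, 286 and 705 CPM in control and 1671, 2169 and 809 CPM in BLM rats (1.83, SE 0.37, adjusted p = 0.0131). In all 3 every BLM rat lay above every control rat, as in 9.58% of all genes tested in these cells. The calls were lost for Cdkn1a without control rats 1 and 3 and BLM rat 2 (adjusted p = 0.0505 to 0.298), for Lgals3 without BLM rat 2 (adjusted p = 0.233) and for S100a6 without control rats 1 and 2 and BLM rat 2 (adjusted p = 0.0655 to 0.137). Lgals3 was seen in 60.9% and 53.0% and S100a6 in 65.8% and 51.8% of control and BLM cells with Ptprc. In all other cells of the same lungs Cdkn1a rose as well, averaging 146 CPM in control and 359 CPM in BLM rats. Lgals3 (4331 and 3632 CPM) and S100a6 (3670 and 2022 CPM) did not rise there. The change of Cdkn1a in Sftpc-high cells minus that in other cells was -0.58 (adjusted p = 0.278 by edgeR's interaction test). The 15 alveolar macrophage markers summed to 2312 to 2663 CPM in control and 559 to 1876 CPM in BLM members, most of it Fabp5, a fatty acid-binding protein, at 2146 to 2562 CPM and 249 to 1251 CPM. The other 14 summed to 101 to 188 CPM and 266 to 626 CPM, and to 101 to 187 CPM and 136 to 306 CPM in the Sftpc-high ones, with Marco and Car4 at 0. Of 3 tested, Plet1 rose in both fits, Fabp5 fell by 1.40 over all members (adjusted p = 0.0245), and Ctsd, cathepsin D, had 0.82 (adjusted p = 0.142). The part of such cells in these rises was not tested.

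Krt8, the keratin that names the state, was called only with the Sftpc-low cells included. It lay at 166, 180.4 and 165 CPM in control and 373, 805 and 332 CPM in BLM rats over all members (log2 fold change 1.55, SE 0.28, adjusted p = 0.00264), and at 161, 179.5 and 159 CPM against 68.2, 315 and 258 CPM in the Sftpc-high members, where the groups overlapped (0.59, adjusted p = 0.378). The claudin Cldn4, a tight junction protein, had 2.22 (adjusted p = 0.00826) over all members, a call lost without BLM rat 2 (adjusted p = 0.456), and -0.21 in the Sftpc-high ones. The limit on Sftpc took out 21 cells with Krt8 at 1270 CPM and Cldn4 at 853 CPM, against 174 and 44.5 CPM in the kept ones. A call lost after that choice therefore cannot show whether AT2 cells held the transitional state. Clu, Hbegf, a ligand of the EGF receptor (1.30), and the annexin Anxa2 (1.08) were called over all members only, Hbegf having 1.02 (adjusted p = 0.159) and Anxa2 0.75 (adjusted p = 0.0609) in the Sftpc-high ones. In the other cells Hbegf averaged 53.1 CPM in control and 185 CPM in BLM rats, and Anxa2 1129 and 1003 CPM. The calls were lost for Hbegf without control rats 2 and 3 and BLM rats 1 and 2 (adjusted p = 0.0743 to 0.463) and for Anxa2 without control rats 1 and 2 and BLM rat 2 (adjusted p = 0.0739 to 0.167). Of 9 markers of type 1 cells, the flat cells into which AT2 cells turn, 0 passed in either fit (median 0.51 and 0.71) or by DESeq2, and 3 had an unadjusted p below 0.05 over all members. The p53 targets Ccng1 (1.26, adjusted p = 0.0370), Pmaip1, which promotes apoptosis (1.30, adjusted p = 0.0348), and Perp (1.21, adjusted p = 0.0390) rose in the Sftpc-high cells and were named after their values were seen. Their BLM rats lay above their control rats, but the calls were lost for Ccng1 without control rats 1, 2 and 3 and BLM rats 2 and 3 (adjusted p = 0.0532 to 0.472), for Pmaip1 without control rats 1 and 2 and BLM rats 1, 2 and 3 (adjusted p = 0.0655 to 0.141) and for Perp without control rats 1 and 2 and BLM rats 1 and 2 (adjusted p = 0.0712 to 0.514).

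Host defence genes moved in both directions. Of 21 tested, 4 rose and 3 fell over all members, and 1 rose and 2 fell in the Sftpc-high ones (median -0.20 and -0.38). Of all genes 2.96% rose and 2.51% fell over all members, and 1.08% and 1.12% in the Sftpc-high ones, so the single rise there is no result about the list. Cxcl1, which draws neutrophils, lay at 8274, 8421 and 10400 CPM in control and 5694, 3822 and 2980 CPM in BLM rats in the Sftpc-high cells (log2 fold change -1.21, SE 0.23, adjusted p = 0.00862). Cxcl3, a chemokine of the same kind, lay at 3562, 6815 and 7530 CPM in control and 1364, 2947 and 1898 CPM in BLM rats (-1.52, SE 0.31, adjusted p = 0.0131), a call lost without control rats 2 and 3 (adjusted p = 0.0505 to 0.0561). Il33, an alarmin kept in the nucleus, lay at 107, 135 and 109 CPM in control and 307, 402 and 338 CPM in BLM rats (1.61, SE 0.22, adjusted p = 7.91e-04). None of the 3 genes overlapped between groups, and of all genes tested in these cells 9.58% lay apart upward and 12% downward. Il33 was seen in 18.9% of control and 39.8% of BLM Sftpc-high cells, against 8.81% and 6.59% of cells with Ptprc, and over all members it rose by 1.22, a call lost without BLM rat 2 (adjusted p = 0.0517). The chemokine Ccl20 fell by 1.51 and the endotoxin receptor Cd14 rose by 1.19 over all members only, and the calls were lost for Ccl20 without control rats 2 and 3 and BLM rats 1, 2 and 3 (adjusted p = 0.0763 to 0.175) and for Cd14 without control rats 1, 2 and 3 and BLM rats 1, 2 and 3 (adjusted p = 0.0949 to 0.170). Cd14 had -0.15 in the Sftpc-high members. Lbp, which carries endotoxin to it, rose by 1.51 (SE 0.23, adjusted p = 7.09e-04) and had 1.03 (adjusted p = 0.0521) in the Sftpc-high members. The lysozyme Lyz2 (-0.53), the IgA carrier Pigr (-0.63) and complement factor B, Cfb (0.04), did not pass the test in either fit.

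Retnla had control rats far apart from each other. It lay at 1874, 524 and 4953 CPM in control and 13850, 16320 and 13030 CPM in BLM rats over all members (log2 fold change 2.49, SE 0.53, adjusted p = 0.00958), and at 1893, 527 and 5013 CPM against 9342, 8150 and 9873 CPM in the Sftpc-high ones (1.83, SE 0.48, adjusted p = 0.0631). The groups did not overlap in either. It was seen in 43.0%, 13.2% and 58.3% of Sftpc-high control cells and in 62.5%, 76.1% and 81.8% of BLM cells, whose median depth was 3505 and 2798 UMIs, and in 0.331% to 2.43% of the cells with Ptprc of a rat. Its call over all members was lost without control rat 1 (adjusted p = 0.0818). Scgb1a1, the club cell protein, which was seen in 97.9% of control AT2 cells, lay at 10200, 12380 and 7074 CPM in control and 47360, 16140 and 40800 CPM in BLM rats in the Sftpc-high members (1.74, SE 0.33, adjusted p = 0.00862), a call lost without control rat 1 (adjusted p = 0.0663). In BLM rats 1, 2 and 3 a single cell held 62.1%, 10.8% and 26.3% of its UMIs. Cells with Ptprc carried it in 21.3% and 10.8%, and its part that is free RNA was not tested. Of the leading AT2 genes, Ly6i (-1.48, adjusted p = 0.00586) and S100g, a calcium-binding protein (-1.21, adjusted p = 0.0330), fell over all members, and Ly6i fell in the Sftpc-high ones as well (-1.33, adjusted p = 0.0348). The calls were lost for S100g without control rats 1 and 2 and BLM rats 1 and 3 (adjusted p = 0.0601 to 0.124) and for Ly6i in the Sftpc-high ones without control rats 1, 2 and 3 and BLM rats 1 and 2 (adjusted p = 0.0520 to 0.123).

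Of 12 genes of MHC class I and the interferon response 4 rose over all members and 2 in the Sftpc-high ones (median 0.72 and 0.50), where 2.96% and 1.08% of all genes rose. The 2 were Ifi27l2b, at 7.21, 13.5 and 10.8 CPM in control and 68.2, 61.2 and 191 CPM in BLM rats (log2 fold change 3.54, SE 0.50, adjusted p = 7.91e-04), and Ifi27, at 12, 23.2 and 136 CPM in control and 273, 192 and 728 CPM in BLM rats (2.79, SE 0.62, adjusted p = 0.0261), both induced by interferon. The groups did not overlap, with all BLM rats higher, as in 9.58% of all genes tested in these cells. The calls were lost for Ifi27l2b without BLM rat 3 (adjusted p = 0.116) and not tested without control rats 1, 2 and 3 and for Ifi27 without control rats 1 and 2 and BLM rat 3 (adjusted p = 0.0716 to 0.363). RT1-S3, a class I gene (2.23), and Ifitm3, a factor that restricts viruses (1.65), rose over all members only, and the calls were lost for RT1-S3 without control rats 1 and 3 and BLM rats 1 and 3 (adjusted p = 0.0542 to 0.0883) and for Ifitm3 without control rat 1 and BLM rats 1 and 3 (adjusted p = 0.0883 to 0.127). In the other cells Ifitm3 averaged 119 CPM in control and 671 CPM in BLM rats, RT1-S3 127 and 173 CPM and Ifi27 415 and 862 CPM. Over all members, the change minus that in other cells was -0.99 for Ifitm3 (adjusted p = 0.0526) and 1.69 for RT1-S3 (adjusted p = 0.00359). Both p-values come from edgeR's interaction test. Of 5 genes of MHC class II, by which cells present antigen, 0 passed in either fit (median -0.44 and -0.14), 2 having an unadjusted p below 0.05 over all members and 0 being called by DESeq2. Cd74, the invariant chain, had -0.52 and -0.14.

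Of 12 ion and water transport genes, 2 rose over all members, the water channels Aqp3 (2.31) and Aqp4 (1.65), and 1 of 11 in the Sftpc-high members (median 0.50 and 0.51). That gene was Scnn1a, a subunit of the sodium channel that clears alveolar fluid, at 168, 135 and 209.5 CPM in control and 477, 262 and 427 CPM in BLM rats (log2 fold change 1.07, SE 0.25, adjusted p = 0.0348). Its BLM rats all lay above its control rats, as in 9.58% of all genes tested in these cells. Over all members it had 0.90 (adjusted p = 0.0582). Of all genes 2.96% rose over all members and 1.08% in the Sftpc-high ones, and a count of 1 gives no result about the list. The calls were lost for Scnn1a without control rats 1 and 2 and BLM rats 1 and 3 (adjusted p = 0.0681 to 0.322), for Aqp3 without BLM rats 1 and 2 (adjusted p = 0.0577 to 0.932) and not tested without control rats 1, 2 and 3 and for Aqp4 without BLM rats 1 and 3 (adjusted p = 0.0517 to 0.548) and not tested without control rats 1, 2 and 3. Of 12 genes of TGF-beta and matrix 2 rose and 1 fell over all members, and 1 of 10, Tgfb2, rose in the Sftpc-high ones (median 0.45 and 0.26). Here 2.96% of all genes rose and 2.51% fell over all members and 1.08% rose in the Sftpc-high ones, so the counts of 1 give no result about the list. Col4a1, a collagen of basement membrane, fell by 1.01 over all members, a call lost without control rats 1, 2 and 3 and BLM rats 1, 2 and 3 (adjusted p = 0.0580 to 0.102).

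Of 23 antioxidant genes 5 rose and 1 fell over all members, where 2.96% and 2.51% of all genes did. In the Sftpc-high ones 0 of 21 passed, 5 of them with an unadjusted p below 0.05 (median 0.29 and 0.21). The 5 that rose over all members were the glutathione transferase Gstp1 (3.08), the aldehyde dehydrogenase Aldh1a1 (4.86), the quinone reductase Nqo1 (1.82), the glutathione peroxidase Gpx2 (1.39) and the peroxiredoxin Prdx5 (1.35), and Cat, catalase, fell by 0.89. Among Sftpc-high members Nqo1 had 0.26, Gpx2 0.39 and Prdx5 1.25 (adjusted p = 0.0681), and Gstp1 and Aldh1a1 were too low to be tested. The calls were lost for Nqo1 without control rats 1, 2 and 3 and BLM rat 1 (adjusted p = 0.0658 to 0.170), for Gpx2 without control rats 1 and 2 and BLM rats 1 and 2 (adjusted p = 0.0615 to 0.0884), for Prdx5 without control rat 1 and BLM rat 2 (adjusted p = 0.0522 to 0.279) and for Cat without control rats 1, 2 and 3 and BLM rats 2 and 3 (adjusted p = 0.0617 to 0.147). Of 28 genes of oxidative phosphorylation (median 0.22), 12 of heat shock and the unfolded protein response (median -0.14) and 4 of proliferation (median -0.19), 0 passed in either fit or by DESeq2, and 3, 2 and 0 had an unadjusted p below 0.05 over all members. Fosl1, an AP-1 factor (0.50), was the single tested gene of the immediate early list.

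**Figure D5:**
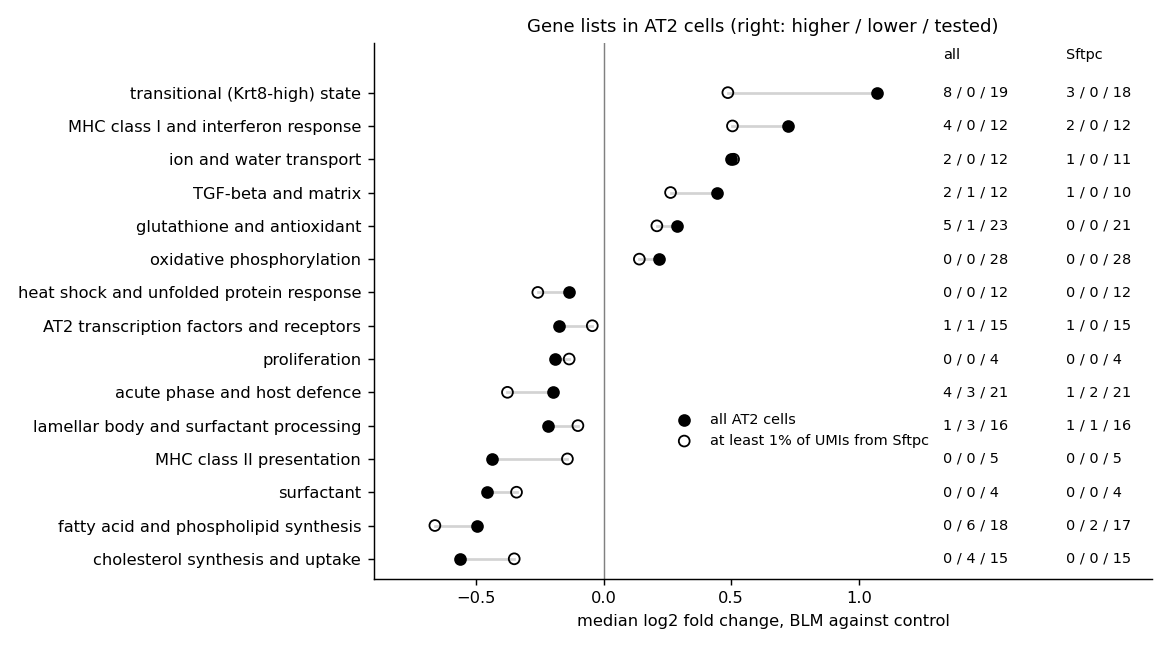
Median log2 fold change (BLM against control) of each gene list with at least 4 tested genes, for all AT2 cells (filled) and Sftpc-high ones (open), with the counts of genes higher, lower and tested at the right. The transitional list moves from 1.07 to 0.49 when the Sftpc-low cells are left out, and both lipid lists stay below 0.

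The change in AT2 cells was also set against the change in all other cells of the same rats, with the rat as a block. Of 11293 genes 767 differed (6.79%), 232 upward (2.05%) and 535 downward (4.74%) in AT2 cells relative to the rest, with a median difference of -0.17 on the log2 scale over all genes. With the Sftpc-high members 705 of 11215 genes differed (6.29%), 87 upward (0.776%) and 618 downward (5.51%), with a median of -0.45. The other cells were a mixture whose make-up differed between the groups, with 12 fibroblast markers at 1289 to 2486 CPM in control and 8618 to 12910 CPM in BLM rats, and the part of that mixture was not tested. Against cells with Ptprc alone 158 genes differed upward and 354 downward, against other cells without Ptprc 213 and 175, and without BLM rat 2 the numbers against all other cells were 133 and 356. The edgeR fit behind these numbers gave all genes of a level the same spread between rats (an infinite weight on the common estimate), so its p-values are too small for genes that vary more. The test by limma voom, chosen after seeing the data, lets the spread differ between genes, and called 701 upward and 356 downward with a median difference of 0.13, so the balance of directions turned with the test as well as with the cells compared. Adgrf5, an adhesion receptor that restrains surfactant secretion, averaged 469 and 198 CPM in control and BLM AT2 cells and 52.1 and 257 CPM in the others (difference -3.65, SE 0.29, adjusted p = 1.33e-32 by edgeR and 0.00140 by limma voom). Gas6, a ligand of receptors that clear dying cells, averaged 1130 and 452 CPM in AT2 cells and 47.7 and 194 CPM in the others (difference -3.52, SE 0.28, adjusted p = 2.84e-32 by edgeR and 7.30e-05 by limma voom). Upward, LOC691143 averaged 20.9 and 434 CPM in AT2 cells and 16.9 and 22.6 CPM in the others (difference 3.74, SE 0.34, adjusted p = 7.03e-25 by edgeR and 0.00544 by limma voom).

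RNA of other cell types in the sums over AT2 cells was listed by marker sets. Club cell markers summed to 9740 to 12400 CPM in control and 18560 to 76090 CPM in BLM members, and to 7101 to 12460 CPM and 16200 to 48590 CPM in the Sftpc-high ones, with Bpifa1 and Reg3g at 0. Of 3 club cell genes tested over all members 3 rose, and of 2 in the Sftpc-high ones 1, where 2.96% and 1.08% of all genes rose. Mesothelial markers, to which Msln belongs, summed to 45.5 to 82.5 CPM and 472 to 1864 CPM over all members and to 45 to 81.1 CPM and 103 to 219 CPM in the Sftpc-high ones, with Upk3b at 0. Fibroblast markers reached 148 CPM in control and 352 CPM in BLM members at most, with Col1a2, Lum, Fbln1 and Mfap4 at 0. Basal cell markers include Aqp3, the water channel described above, at 9.51 to 46.4 CPM in control and 36.2 to 313 CPM in BLM members. The other 6 summed to 0 to 7.74 CPM and 18.1 to 145 CPM, and to 0 to 7.72 CPM and 0 to 8.75 CPM in the Sftpc-high ones, with Krt5 at 0. Interstitial macrophage markers lay at 13.4 to 38.7 CPM and 20.7 to 293 CPM, and neutrophil markers at 10.7 to 57.1 CPM and 0 to 166 CPM. T cell, B cell, NK cell, smooth muscle and neuroendocrine markers each stayed at or below 30.2 CPM, and ciliated and tuft cell markers at or below 41.4 CPM. Erythroid markers stood at 6288 CPM in BLM rat 2 and at 0 to 18.1 CPM in the other rats. The part of these sets in the results above was not tested.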

How the data were processed

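Lungs of 6 Sprague-Dawley rats, 3 given saline and 3 given bleomycin, were dissociated, and single-cell libraries (BD Rhapsody, whole transcriptome) were sequenced by the authors. The deposited counts are whole UMI counts of 16383 genes in 25547 cells, with no normalization. Genes carry rat names, while mm9 is the build in the notes of the submitters on processing. Which aligner and cell filter were used is not given in the sources used here. Gene values lay 1 field to the right of their names in the header and were shifted back. The end of a cell name, N or F with a number, was read as control or BLM and the rat, since cells per code sum to the study's totals. A total of 3860028 to 16598959 UMIs was found per library, and 0 columns belonged to other samples.

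AT2 cells were found by the marker rule given at the start. Counts were summed per rat over AT2 cells, and separately over all other cells. BLM was compared with control by edgeR 4.0.16 (R 4.3.3) with filterByExpr, TMM scaling and the quasi-likelihood test, with p-values adjusted by Benjamini and Hochberg (threshold 0.05) over all genes tested. The rule genes, Ptprc and Cdh5 stayed in the library sizes and in the adjustment but were given no call. For BLM against control the adjustment thus ran over 4593 genes, of which 4587 are counted here. The change in AT2 cells was compared with that in other cells by an interaction term with the rat as a block, in edgeR and in limma voom. Shares were compared by exact permutation over rats, with exact 95% binomial intervals that cover counting error only. AT2 and other cells were compared as log2 ratios of CPM with 10 added to both, and spread between cells as variance over mean after thinning to 2000 UMIs, as descriptions. Doublets were not called. Alternatives were other rules for the members, depth limits, RLE scaling, no filter, DESeq2 1.42.0, a replicate block and leaving out each rat. In 5 simulated data sets with 200 changed genes, changed genes that passed the filter were counted, 451 with a log2 change of 2 and 473 with 1. The comparison of AT2 cells recovered 90.7% and 38.1% of these, and 5.91% of its calls were false (median of 4236 genes tested). Changed genes that the filter removed are not in these shares. The simulated sums held no mixture of Sftpc-high and Sftpc-low cells. The interaction recovered 74.8% and 19.2%, with 4.47% false (4593 genes). Its simulated other cells had no change after BLM, the spread of the AT2 sums and no effect shared within a rat. The real fit had 11293 genes and other cells whose make-up differed between groups, so the 4.47% does not measure its false calls.

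Genes named were the rule genes and Sftpc, up to 10 genes in each direction with the largest change among called genes of at least 50 CPM whose groups did not overlap, the called members of 16 program lists with up to 4 abundant others, the 20 leading genes against other cells, up to 5 interaction genes in each direction, and the 10 genes with the largest spread between cells. Besides these lists 17 lists of cell type markers were used. The second rule was also applied to the Sftpc-high members, after their values were seen. The members and lists were chosen with earlier results of these data known. Some genes that meet these rules enter the counts but are not reported here by name.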

Additional observations from a re-analysis of the deposited data

Results flagged for a closer look

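For 10 genes the change after BLM in AT2 cells differed from the change in the other cells of the same rats by the interaction term of edgeR's quasi-likelihood test, and these 10 had the smallest p in their direction. With groups of 3 rats no sample was tested as an outlier.

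5 genes differed upward. Msln differed by 6.56 on the log2 scale, averaging 1.11 and 832 CPM in control and BLM AT2 cells and 83.4 and 437 CPM in the other cells. Ffar4, a receptor of long-chain fatty acids, differed by 5.46, averaging 4.26 and 163 CPM in AT2 cells and 72.4 and 49.7 CPM in the others. Aldh1a1 differed by 4.25, averaging 10.8 and 453 CPM and 36.8 and 48.3 CPM. LOC691143 differed by 3.74, averaging 20.9 and 434 CPM and 16.9 and 22.6 CPM. Scgb3a2 differed by 3.52, averaging 40.5 and 1446 CPM and 172 and 359 CPM. In the Sftpc-high members the differences were 2.41 (adjusted p = 0.0808) for Msln, 2.88 (adjusted p = 0.0202) for Ffar4, 1.5 (adjusted p = 0.307) for Aldh1a1, 3.13 (adjusted p = 5.97e-14) for LOC691143 and 1.39 (adjusted p = 0.0162) for Scgb3a2, so Msln and Aldh1a1 no longer passed the test. Scgb3a2 lay at 42.0, 34.7 and 0 CPM in control and 1193, 0 and 29.4 CPM in BLM rats in these members, so only BLM rat 1 lay above the control rats. Without that rat its log2 fold change, BLM against control, was -0.58 in them.

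5 genes differed downward. Cthrc1, a secreted protein of collagen-making fibroblasts, differed by -6.09, averaging 45.2 and 22.2 CPM in control and BLM AT2 cells and 3.20 and 89.2 CPM in the others. Prss23, a secreted serine protease, differed by -4.22, averaging 542 and 120 CPM and 31.3 and 107 CPM. Slc9a3r2, a scaffold of membrane transporters, differed by -3.95, averaging 243 and 129.9 CPM and 21.4 and 168 CPM. Adgrf5 differed by -3.65, averaging 469 and 198 CPM and 52.1 and 257 CPM. Gas6 differed by -3.52, averaging 1130 and 452 CPM and 47.7 and 194 CPM. In the Sftpc-high members the differences were -5.87 (adjusted p = 1.24e-27) for Cthrc1, -4.06 (adjusted p = 9.05e-32) for Prss23, -3.85 (adjusted p = 2.03e-29) for Slc9a3r2, -3.50 (adjusted p = 4.08e-27) for Adgrf5 and -3.39 (adjusted p = 7.22e-26) for Gas6. In each of the 5 genes the mean after BLM was higher in the other cells and lower in AT2 cells. Over all members, the only ones so tested, all 10 genes passed the test by limma voom as well (adjusted p = 7.30e-05 to 0.00755). There edgeR with a robust estimate of the spread did not call Msln (adjusted p = 0.243), Scgb3a2 (adjusted p = 0.263), Aldh1a1 (adjusted p = 0.0936) and Prss23 (adjusted p = 0.121).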

How the results depend on the processing

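The log2 ratio of AT2 shares, BLM over control, was -3.12 and lay between -3.98 and -2.56 under all alternatives run, and between -3.69 and -2.73 when 1 rat was left out. The counts of genes higher and lower, 136 and 115, were 319 and 254 with at least 2 rule genes per cell, 54 and 48 with at least 4, 73 and 48 with at least 1 UMI of Sftpc (chosen after seeing the data), 48 and 50 in the Sftpc-high members, 212 and 238 without the filter on low counts, and 148 and 77 by DESeq2. Leaving out 1 rat gave 69 to 131 higher and 48 to 105 lower. In the Sftpc-high members it gave 13, 30 and 36 higher and 20, 22 and 23 lower without control rats 1, 2 and 3, and 38, 24 and 25 higher and 28, 26 and 34 lower without BLM rats 1, 2 and 3. The number of genes tested differed between these fits. Over all members it was 2994 to 3021 without a control rat, 6190 to 6361 without a BLM rat and 14453 without the filter. In the Sftpc-high members it was 2352 to 2364 without a control rat and 5999 to 6132 without a BLM rat. For the difference between AT2 and other cells, 232 higher and 535 lower became 87 and 618 in the Sftpc-high members, 158 and 354 against cells with Ptprc, and 213 and 175 against other cells without Ptprc, 701 and 356 by limma voom, and 230 and 529 with a robust estimate of the spread (both chosen after seeing the data), while leaving out 1 rat gave 133 to 186 and 332 to 635. Here 10564 genes were tested against cells with Ptprc, 9027 against other cells without it, and 11498 to 12592 with 1 rat left out. The direction of Cldn4 turned to -0.21 and that of Cd14 to -0.15 in the Sftpc-high members, and when BLM rat 1, 2 or 3 was also left out they were -0.0426, -0.408 and -0.483 for Cldn4, and -0.125, -0.117 and -0.409 for Cd14. Scgb3a2 (-0.58) and Ifitm3 (-0.057) turned without BLM rat 1, and Nqo1 (-0.29) without BLM rat 2, in those members. The cause of these turns was not tested.

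Rats of both groups share replicate numbers. Same-numbered rats deviated from their group means with correlations of -0.031, -0.038 and -0.064 across genes. These values cannot show whether such rats shared more than a number, since each mean holds only 3 rats and BLM rat 1 rested on 11 cells. With the replicate block 108 genes were higher and 81 lower, and the share had a log2 ratio of -3.34 (exact permutation p = 0.25). For the difference between AT2 and other cells, the block by number in place of the rat gave 99 and 263, and no replicate block 94 and 220. No rat correlated best with its own number.

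Depth limited the rest. The BLM sums rested on 11, 54 and 49 cells, genes under a few UMIs per rat were not tested, and a change that was not called may be one that these sums could not show.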
